A study of Homo sapiens with 11 samples.

Results

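The HOX genes encode homeodomain transcription factors and lie in 4 clusters, HOXA on chromosome 7, HOXB on chromosome 17, HOXC on chromosome 12 and HOXD on chromosome 2. Members were all genes whose symbol is HOX followed by A, B, C or D and a number, with nothing after it, and no measured value was used to choose them. This gave 40 gene identifiers with 39 symbols among 58699 genes, since HOXC5 has a protein-coding entry (ENSG00000172789.3) and a processed-transcript entry (ENSG00000273046.1). HOXA has 11 entries, HOXB 10, HOXC 10 and HOXD 9.

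The study measured RNA in HCT116 cells, a long-established line from a human colorectal carcinoma, and its title concerns endogenous retroviruses, double-stranded RNA and immunity when DNA methylation is inhibited. All cells were given an siRNA, which targeted either luciferase (the control, siLuc) or the double-stranded RNA binding protein Staufen1 (siStau1). They received the solvent DMSO or decitabine (DAC), a nucleoside that traps DNA methyltransferases, which the labels give at 500 nM for 5 days. Combining each siRNA with each agent gave 4 groups, and total RNA of each was sequenced as 2 libraries. The labels do not say whether the 2 libraries of a group came from separate cultures. It is therefore not known whether a p-value takes the spread between cultures into account. The table of gene levels holds 1 FPKM value (fragments normalised to transcript length and library size) per gene and group, as the authors computed it. No spread between libraries and no depth can therefore be stated. The 3 further libraries of RNA bound by the J2 antibody were summarised over repeat elements and were not used here.

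HOX genes are switched on in an order along the body axis that follows their order along the chromosome, a property called colinearity. Genes of the same number in different clusters are paralogs, with the lowest numbers at the anterior and the highest at the posterior end of the axis. Adult tissues keep a HOX pattern that reflects their place along this axis, and the hindgut, from which the distal colon derives, lies in its posterior part. Polycomb proteins hold HOX clusters silent, trithorax and MLL proteins oppose them, and CpG methylation of HOX promoters is common in cancer cells.

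Of the markers of colorectal epithelium that were checked, EPCAM, KRT8, KRT18, KRT19, CDH1, CDX2 and KRT20 were at 1 FPKM or more in siLuc DMSO, while VIL1 was at 0.029 FPKM and CDX1 and LGR5 were listed at 0. Summed over 8 markers of immune, endothelial and fibroblast cells, the level was 3.38 FPKM with DMSO and 29.03 with DAC in siLuc cells, and 1.67 and 15.5 in siStau1 cells, and PTPRC, CD3E, PECAM1 and COL1A2 were listed at 0 in siLuc DMSO. CD68 and COL1A1 were the only 2 of the 8 at 1 FPKM or more there. The sum over the 10 epithelial markers was 2602 FPKM with DMSO and 8205 with DAC in siLuc cells, and 2152 and 5957 in siStau1 cells. Of 8 epithelial markers tested, 3 were called higher and 1 lower with DAC in siLuc, and 4 higher in siStau1, in the authors' deposited table. Of 5 other markers tested in each arm, 1 was called higher in siLuc and 3 in siStau1 in that table. Over all genes tested, 8.71% were called higher and 4.78% lower in siLuc, and 4.56% and 2.89% in siStau1. Both sums were higher in both DAC groups, so they move with the DAC comparisons below, and their part in them was not tested. In such bulk samples fewer cells of a type and less RNA per cell cannot be told apart. STAU1 itself was at 35.5 FPKM with DMSO and 33.7 with DAC in siLuc cells, and 30.0 with DMSO and 27.1 with DAC in siStau1 cells. In the authors' deposited table the knockdown comparisons of STAU1 had q-values of 0.767 (DMSO) and 0.685 (DAC), so the targeted transcript was not called lower in the groups labelled siStau1.

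Of the 40 HOX entries, 21 reached 1 FPKM in at least 1 group and 12 did so in all 4 groups. The expressed genes were mostly in HOXA and HOXB, each with 8 genes at 1 FPKM or more in any group, against 4 in HOXC and 1 in HOXD. Summed over all HOX genes, the level was 159.8 FPKM with DMSO and 106.3 with DAC in siLuc cells, and 180.0 with DMSO and 111.7 with DAC in siStau1 cells. Both DMSO groups were above both DAC groups. The summed FPKM of all protein-coding genes was 596466, 601205, 564445 and 544643 in the same order, and the HOX sums kept that order after the groups were scaled to an equal protein-coding sum.

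**Figure D1:**
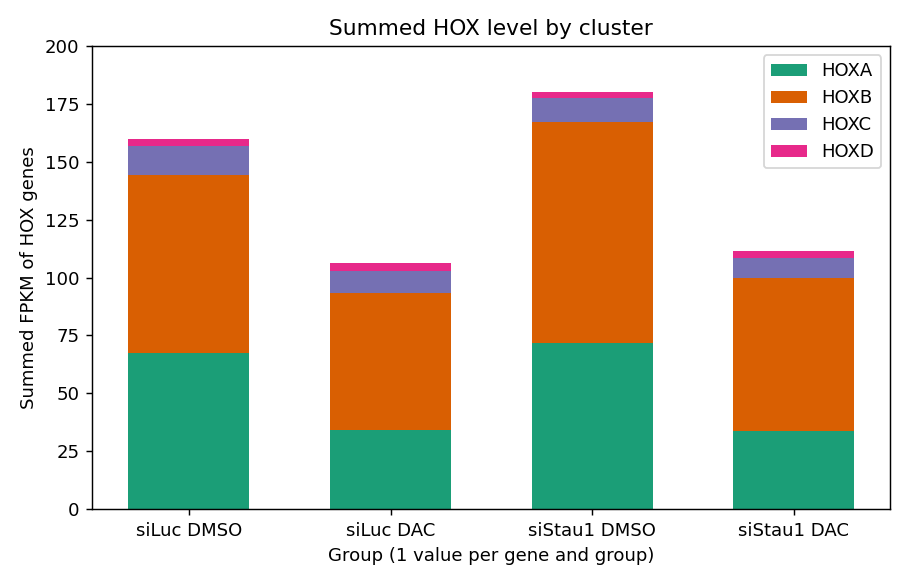
Summed FPKM of the HOX genes in each group, stacked by cluster, with 1 value per gene and group and therefore no error bars. The sums are 159.8 and 180.0 FPKM in the DMSO groups and 106.3 and 111.7 FPKM in the DAC groups, and HOXA and HOXB make up most of every bar.

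HOXB held the largest share of the summed HOX level in each group, 48.1% with DMSO and 55.5% with DAC in siLuc cells, and 53.2% and 59.3% in siStau1 cells. HOXA held 42.3%, 32.2%, 39.8% and 30.1% in the same order. HOXC held between 5.65% and 9.07%, and HOXD between 1.37% and 3.22%. In each cluster, 1 gene held most of the sum in siLuc DMSO: HOXA9 had 61.8% of HOXA, HOXB7 67.9% of HOXB, HOXC9 60.7% of HOXC and HOXD8 64.7% of HOXD. In siLuc DAC the same genes held 57.2%, 40.4%, 45.2% and 28.9%.

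By position along the clusters, genes of paralog groups 9 to 13 (posterior) held 47.0% of the summed level in siLuc DMSO and those of groups 4 to 8 (central) 46.8%, against 6.20% for groups 1 to 3 (anterior). The anterior share was 11.3% with DAC in siLuc cells, and 9.63% with DMSO and 13.04% with DAC in siStau1 cells, and the posterior share was 40.1%, 43.5% and 36.95%. HOXB3 made up most of the anterior level in each group.

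**Figure D2:**
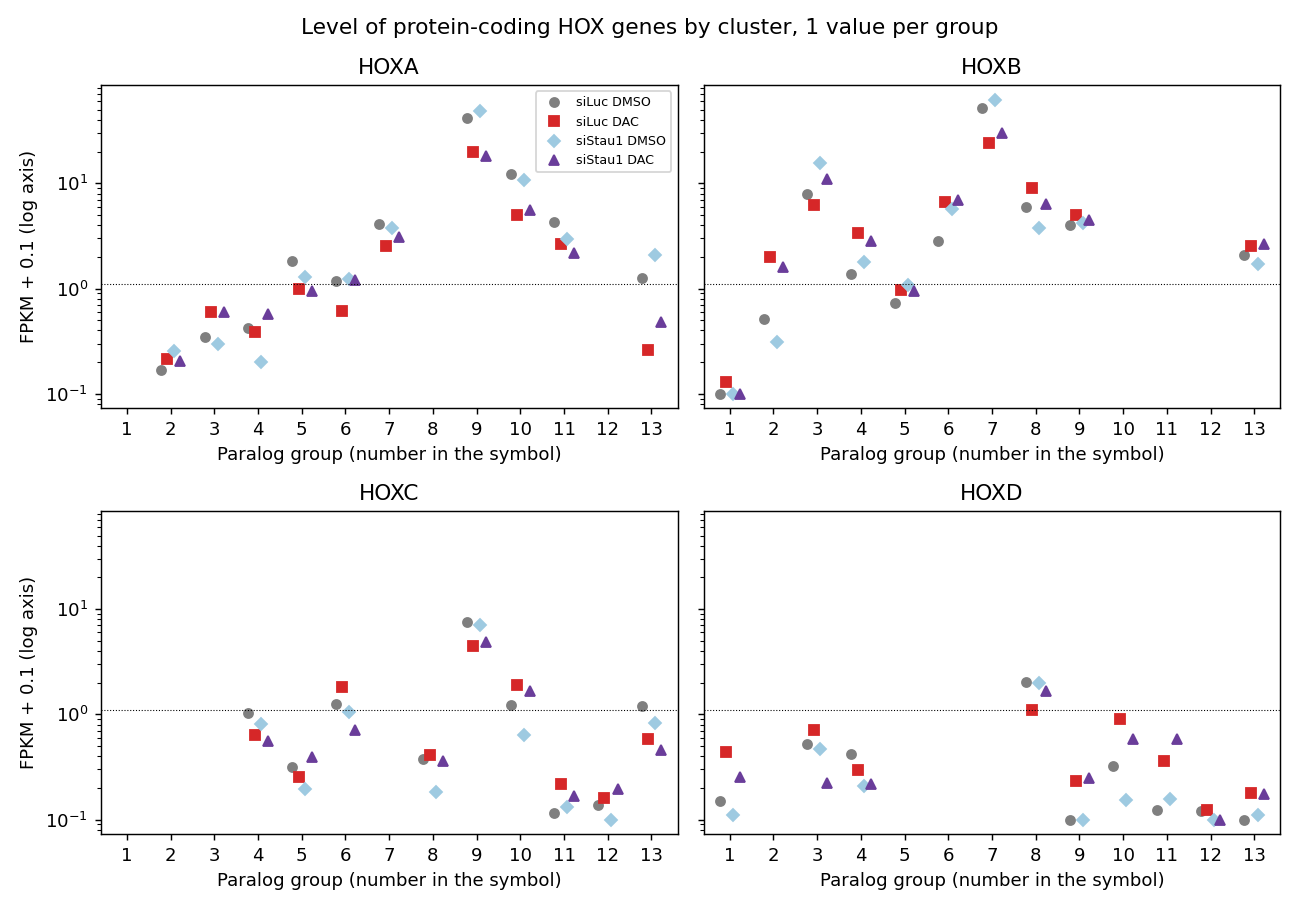
Level of protein-coding HOX genes (FPKM + 0.1, log axis) against their paralog group, in 1 panel per cluster, with 1 point per group and a dotted line at 1 FPKM. HOXA9 and HOXB7 are the highest genes of their clusters, and in HOXD only HOXD8 lies above the line.

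According to the authors' deposited table, 1 of 25 HOX genes tested was called between DAC and DMSO in siLuc cells at a q-value under 0.05, against 13.5% of all 17504 genes tested (4.78% called lower). In siStau1 cells 2 of 23 were called in that table, against 7.46% of 16979 genes (2.89% called lower). All 3 calls were lower with DAC and concerned HOXA13, called in both arms, and HOXA9, both of the posterior part of HOXA. The share of 1 in 25 is below its background and that of 2 in 23 is near it, so neither is read as a result about HOX genes as a set. No HOX gene was called higher with DAC in either arm by Cuffdiff, against 8.71% of genes in siLuc and 4.56% in siStau1. At an unadjusted Cuffdiff p under 0.05, HOXA9 and HOXA13 passed in both arms. Over all genes tested, 5056 of 17504 passed in siLuc and 3228 of 16979 in siStau1, so passing was common.

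HOXA13, the most posterior HOXA gene, which patterns the hindgut, distal limb and urogenital tract, lies on the reverse strand at chr7:27193503-27200106 (GRCh38). Its level was 1.15 FPKM with DMSO and 0.159 with DAC in siLuc cells, and 2.01 with DMSO and 0.383 with DAC in siStau1 cells. Both DAC groups were below both DMSO groups. HOXA13 fell by 2.28 on the log2 scale of FPKM + 0.1 in siLuc cells and by 2.12 in siStau1 cells, with q-values of 0.0413 and 0.00293 in the authors' deposited table. A level of 0.159 FPKM is close to the added 0.1, so these ratios understate the change. Its exons overlap those of the long non-coding RNA HOTTIP on the opposite strand, which was at no more than 0.179 FPKM in any group.

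HOXA9, a posterior gene widely studied in leukaemia, lies at chr7:27162435-27175180 on the reverse strand. It was the second-highest HOX gene in siLuc DMSO, with levels of 41.7 FPKM with DMSO and 19.6 with DAC in siLuc cells, and 48.7 and 18.3 in siStau1 cells. Again both DAC groups lay below both DMSO groups. In siStau1 cells HOXA9 fell by 1.41 on the log2 scale (q = 0.0354 in the authors' deposited table). In siLuc cells the log2 ratio was -1.09 (p = 0.0276, q = 0.192 in the authors' deposited table), which is not a call. The difference between the arms, -0.32, could not be tested without values per library. Exons of HOXA9 overlap those of AC004080.3, a gene that reads through from HOXA10, and of MIR196B on the same strand, so how reads were divided between them is uncertain. On the opposite strand, exons of HOXA9 overlap those of HOXA10-AS, an expressed antisense RNA described below.

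Because DAC lowers CpG methylation, the 250 bases before the RefSeq start (GRCh38.p14) of these genes are given, 5′ to 3′ on the reverse strand, with each CG in capitals. The HOXA13 stretch, chr7:27200092-27200341, holds 40 CG dinucleotides and overlaps the annotated first exon by 15 bases. The HOXA9 stretch, chr7:27165538-27165787, holds 20 and overlaps no annotated exon, although it lies within the span of the gene.
HOXA13: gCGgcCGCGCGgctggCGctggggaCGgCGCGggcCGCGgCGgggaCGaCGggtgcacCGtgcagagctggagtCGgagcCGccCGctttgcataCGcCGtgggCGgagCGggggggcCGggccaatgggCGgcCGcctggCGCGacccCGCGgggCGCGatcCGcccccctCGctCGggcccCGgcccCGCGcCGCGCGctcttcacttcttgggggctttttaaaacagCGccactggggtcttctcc
HOXA9: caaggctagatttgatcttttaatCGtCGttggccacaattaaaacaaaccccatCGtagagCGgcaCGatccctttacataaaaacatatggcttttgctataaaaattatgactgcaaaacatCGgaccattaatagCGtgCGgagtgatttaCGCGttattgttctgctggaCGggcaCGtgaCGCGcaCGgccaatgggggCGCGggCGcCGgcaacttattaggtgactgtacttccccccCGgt

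RefSeq windows of 300 bases, from 250 before to 50 after a start, were available for 20 of the 39 HOX symbols, with 27 windows among 35116. HOXC4 and HOXC5 share 1 stretch, so 26 of the 27 are distinct (34943 over all genes), and 7 of these belong to HOXA3 and 1 to HOXB. HOXB7, the highest member with no call, has no window in the table. The median distinct window of a HOX gene held 22.5 CG dinucleotides against 14 over all distinct windows. CG counts ranged from 0 to 44 among HOX windows, and the HOXA13 window held the 44. The motif TTTATNG, of the kind bound by caudal-type factors such as CDX2, was searched on both strands and matched 6 of 26 distinct HOX windows (23.1%), 2 of them of HOXA3, and 9.75% of all distinct windows. TGATNNAT, of the kind bound by HOX and PBX proteins together, matched 3 (11.5%), against 7.42% of all distinct windows. The windows measure sequence only, and methylation was not measured here.

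Further expressed HOXA genes, from the posterior end on, were HOXA11, HOXA10, HOXA7, HOXA6 and HOXA5. HOXA10, a gene of uterine and limb patterning, was at 12.1 FPKM with DMSO and 4.89 with DAC in siLuc cells, and 10.8 with DMSO and 5.48 with DAC in siStau1 cells. HOXA11, which acts in kidney, limb and uterus, was at 4.22, 2.55, 2.87 and 2.07 FPKM in the same order. HOXA7 was at 4.05, 2.43, 3.70 and 2.96 FPKM. These 3 genes were lower in the DAC group of each arm, with q-values of 0.491 or more in the authors' deposited table.

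HOXA5, needed for lung and gut patterning, was at 1.71 FPKM with DMSO and 0.882 with DAC in siLuc cells, and 1.19 with DMSO and 0.846 with DAC in siStau1 cells. HOXA6 was at 1.09, 0.506, 1.13 and 1.105 FPKM, so that the siStau1 groups were nearly equal. Neither gene was called in either arm. HOXA2, HOXA3 and HOXA4 stayed at or below 0.505 FPKM in all groups.

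HOXB7, reported to promote proliferation in several carcinomas, was the highest HOX gene in all 4 groups. Its level was 52.2 FPKM with DMSO and 23.8 with DAC in siLuc cells, and 62.4 with DMSO and 30.2 with DAC in siStau1 cells. The log2 ratios for DAC were -1.13 and -1.04, with p-values of 0.0572 and 0.0726 and q-values of 0.303 and 0.347 in the authors' deposited table. So the DAC ratio of HOXB7 was about the size of that of HOXA9 in siLuc cells and was not called in either arm.

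HOXB3, an anterior gene of hindbrain patterning, was at 7.84 FPKM with DMSO and 6.18 with DAC in siLuc cells, and 15.6 with DMSO and 10.8 with DAC in siStau1 cells. It differed more between the siRNAs, with log2 ratios of 0.98 with DMSO and 0.79 with DAC, than between DAC and DMSO, but neither siRNA ratio was called (q = 0.668 and 0.798 in the authors' deposited table).

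The other 6 expressed HOXB genes were higher in the DAC group of both arms, and none was called. HOXB2, which acts in hindbrain patterning, was at 0.416 and 1.92 FPKM with DMSO and DAC in siLuc cells, and 0.208 and 1.499 FPKM in siStau1 cells. Its log2 ratios of 1.96 and 2.38 were the highest of the expressed HOX genes in each arm, with q-values of 0.702 and 0.506 in the authors' deposited table. HOXB4, known for its effect on blood stem cells, was at 1.26, 3.27, 1.70 and 2.75 FPKM (log2 ratios 1.31 and 0.67, q = 0.314 and 0.671 in that table).

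HOXB6 was at 2.75 FPKM with DMSO and 6.53 with DAC in siLuc cells, and 5.54 with DMSO and 6.81 with DAC in siStau1 cells. The siStau1 DMSO level of HOXB6 was closer to the DAC groups than to siLuc DMSO. HOXB8 was at 5.88, 8.98, 3.67 and 6.32 FPKM in the same order. The range of HOXB9 was narrow, with 3.91, 4.94, 4.08 and 4.42 FPKM. HOXB13, the posterior HOXB gene, known in prostate and distal colon, was at 1.99, 2.45, 1.59 and 2.55 FPKM. For all 4 of these genes each DAC group was above the DMSO group of the same siRNA. HOXB5 stayed at or below 0.991 FPKM and HOXB1 at or below 0.0296. Exons of HOXB3 overlap those of HOXB4 and of HOXB6 on the same strand, so reads may be shared among these genes. On the opposite strand, exons of HOXB6 overlap those of HOXB-AS3, an antisense RNA called higher with DAC in siLuc cells (below). Those of HOXB2 overlap HOXB-AS1 on the opposite strand.

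In HOXC, HOXC9 was the only gene at 1 FPKM or more in all groups, with 7.51 FPKM with DMSO and 4.36 with DAC in siLuc cells, and 6.94 with DMSO and 4.82 with DAC in siStau1 cells. Its log2 ratios for DAC were -0.77 and -0.52. HOXC13, a hair and nail gene, was at 1.098, 0.477, 0.718 and 0.360 FPKM, also lower in both DAC groups. HOXC10 was at 1.13, 1.79, 0.535 and 1.55 FPKM, higher in both.

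HOXC6 was at 1.16 FPKM with DMSO and 1.71 with DAC in siLuc cells, and 0.960 with DMSO and 0.615 with DAC in siStau1 cells. It was the only member of the 21 expressed members whose DAC ratio had opposite signs in the arms, 0.52 in siLuc and -0.57 in siStau1, and neither was called. Exons of HOXC6 and HOXC9 overlap on the same strand, so reads may be shared between them. HOXC4, both HOXC5 entries, HOXC8, HOXC11 and HOXC12 stayed at or below 0.932 FPKM.

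HOXD8 was the only HOXD gene above 1 FPKM, with 1.94 FPKM with DMSO and 0.990 with DAC in siLuc cells, and 1.87 with DMSO and 1.58 with DAC in siStau1 cells. HOXD1, HOXD3, HOXD4 and HOXD9 to HOXD13 stayed at or below 0.804 FPKM, the level of HOXD10 in siLuc DAC. HOXD10 was at 0.226, 0.804, 0.0522 and 0.479 FPKM in the 4 groups and HOXD11 at 0.0223, 0.259, 0.0559 and 0.485 FPKM. HOXD11 was not tested in either DAC comparison of the authors' deposited table, where 15 HOX entries were tested in none of the 4 comparisons used here.

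**Figure D3:**
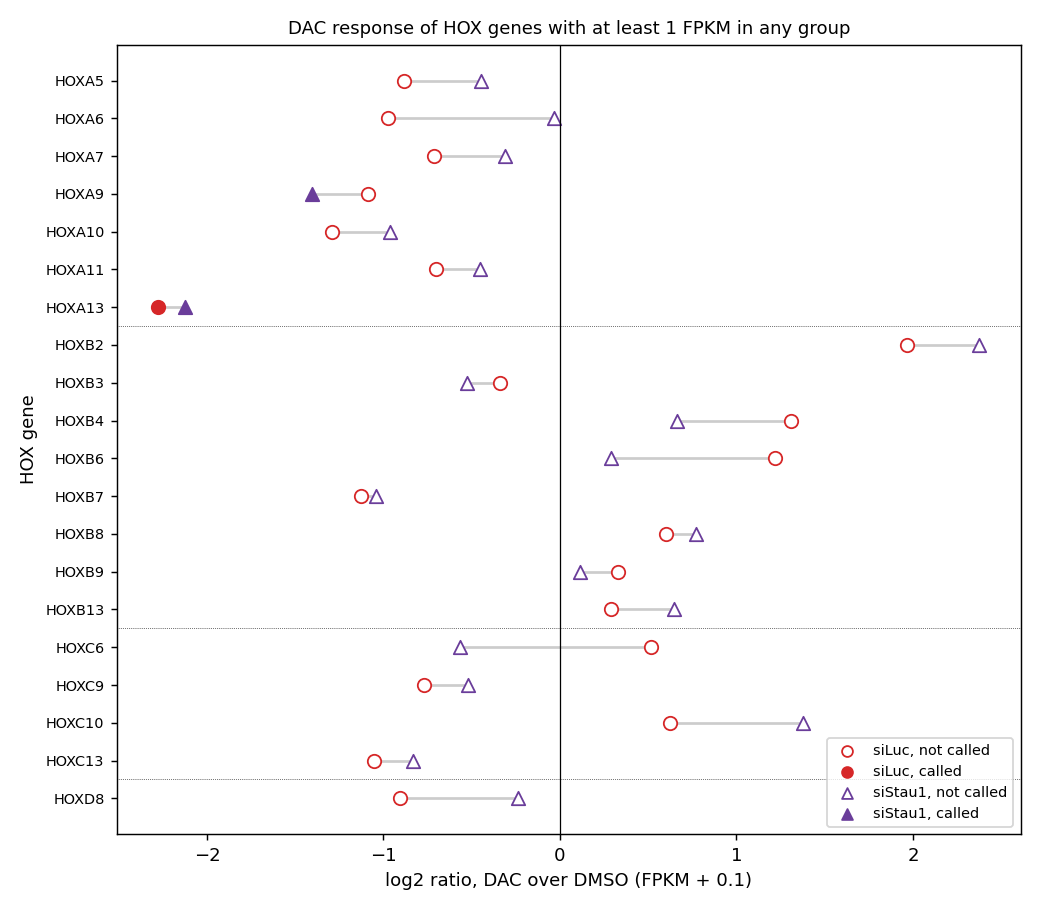
Log2 ratio of DAC over DMSO (FPKM + 0.1) for 20 HOX genes with at least 1 FPKM in any group, with circles for siLuc, triangles for siStau1, and filled symbols for genes called in the authors' deposited table. HOXA13 has the lowest ratios, -2.28 and -2.12, HOXB2 the highest, 1.96 and 2.38, and HOXC6 alone has symbols on both sides of 0.

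Set side by side before the centring by GC content given below, the clusters differed in sign. Among genes with at least 1 FPKM in either group of the comparison, 7 of 8 HOXA genes were lower with DAC and 6 of 8 HOXB genes were higher, in both arms. The median log2 ratio of HOXA was -0.93 in siLuc and -0.45 in siStau1, that of HOXB was 0.47 in both, and the median over all genes under the same filter was 0.18 and 0.07. HOXC had medians of -0.13 over 4 genes in siLuc and 0.43 over 2 genes in siStau1. HOXD had -0.91 and -0.24, which are the ratios of HOXD8 alone. Over all expressed members the median was -0.70 in siLuc and -0.24 in siStau1, and it turned to 0.31 and 0.089 when members below 1 FPKM were kept in.

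The sums went the other way from the medians for HOXB and HOXD in both arms, and for HOXC in siStau1. HOXB sums, of which HOXB7 holds the largest share, were 76.9 FPKM with DMSO and 59.0 with DAC in siLuc cells, and 95.8 with DMSO and 66.2 with DAC in siStau1 cells. HOXA sums were 67.5, 34.2, 71.6 and 33.6 FPKM, HOXC sums 12.4, 9.64, 10.2 and 8.70 FPKM, and HOXD sums 3.002, 3.42, 2.47 and 3.15 FPKM. HOX transcripts were richer in GC than others, with a median of 54.2% for the 21 expressed members against 48.6% for expressed protein-coding genes. When ratios were centred on genes of like GC content, the HOXB median turned to -0.31 in siLuc and -0.12 in siStau1 and the HOXA median was -1.30 and -0.83, while HOXA13 stayed at -1.85 and -1.76 and HOXA9 at -1.12 and -1.43. The HOXC and HOXD medians were then -0.67 and -1.82 in siLuc, and 0.0055 and -0.95 in siStau1. The direction given for HOXB therefore depends on this centring, and in siLuc the centred medians of all clusters were negative.

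The arms share no library, and 20 of the 21 expressed members had the same sign of the DAC ratio in both, 8 higher and 12 lower, against 81.6% of 16046 genes under the same filter. Pearson's r between the arms was 0.87 and Spearman's rho 0.84 across these 21 genes, which are not independent replicates. The difference between arms (siStau1 minus siLuc) was lowest for HOXC6, -1.09, and highest for HOXA6, 0.94. Whether any of these differences exceeds the spread between libraries could not be tested.

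For the knockdown itself, 0 of 22 HOX genes tested were called between siStau1 and siLuc with DMSO in the authors' deposited table, against 0.799% of 15893 genes tested (0.333% higher, 0.466% lower). With DAC, 0 of 22 were called in that table, against 0.904% of 17263 genes (0.434% higher, 0.469% lower). No HOX gene had an unadjusted p-value under 0.05 in either Cuffdiff comparison. Over all genes tested, 684 of 15893 had one with DMSO and 1199 of 17263 with DAC. The median log2 ratio of expressed members was -0.11 with DMSO and -0.02 with DAC, and both turned positive, 0.18 and 0.34, when centred within GC bins. Among members of at least 1 FPKM in either group of the comparison, the largest ratios were those of HOXB6 (0.99) and HOXB3 (0.98) with DMSO and of HOXC6 (-1.34) with DAC.

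The clusters also hold long non-coding RNAs, microRNA genes and, at the HOXB end, the PRAC genes, of which 58 were listed and 12 reached 1 FPKM in any group. Of those tested, the authors' deposited table calls 3 of 16 higher with DAC in siLuc (8.71% of all genes tested) and 1 of 13 in siStau1 (4.56%), and none lower. HOXB-AS3, an antisense RNA of central HOXB, was listed at 0 with DMSO and 2.65 with DAC in siLuc cells, and 0.405 with DMSO and 2.32 with DAC in siStau1 cells, and rose in siLuc cells (q = 0.00162 in the authors' deposited table). HAGLR, an antisense RNA of HOXD, was at 0.0233, 0.579, 0 and 0.215 FPKM in the same order and also rose in siLuc cells (q = 0.00415 in that table). PRAC2, a gene known from prostate and distal colon next to HOXB13, was listed at 0 with DMSO, had levels of 1.15 FPKM (siLuc) and 2.24 FPKM (siStau1) with DAC, and was called higher in both arms (q = 0.00825 and 0.00162 in that table).

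PRAC1, beside PRAC2, was also listed at 0 with DMSO, and with DAC it was at 0.566 FPKM in siLuc and 0.862 in siStau1 cells, without a call (q = 0.180 and 0.149 in the authors' deposited table). HOXB13, their neighbour, was not called. HOTAIRM1, an antisense RNA of the HOXA cluster, was at 1.77 FPKM with DMSO and 3.97 with DAC in siLuc cells, and 5.52 with DMSO and 3.55 with DAC in siStau1 cells, so its order did not follow DAC. HOXA10-AS was at 8.27, 7.42, 6.08 and 7.07 FPKM, a narrow range beside that of HOXA10. HOTAIR stayed at or below 0.328 FPKM, and the 8 microRNA genes of the clusters were listed at 0 in all groups. The kits were stranded per the labels, but whether reads were counted by strand is not given in the sources used here, so an antisense RNA and the HOX gene it overlaps cannot be told apart with certainty.

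**Figure D4:**
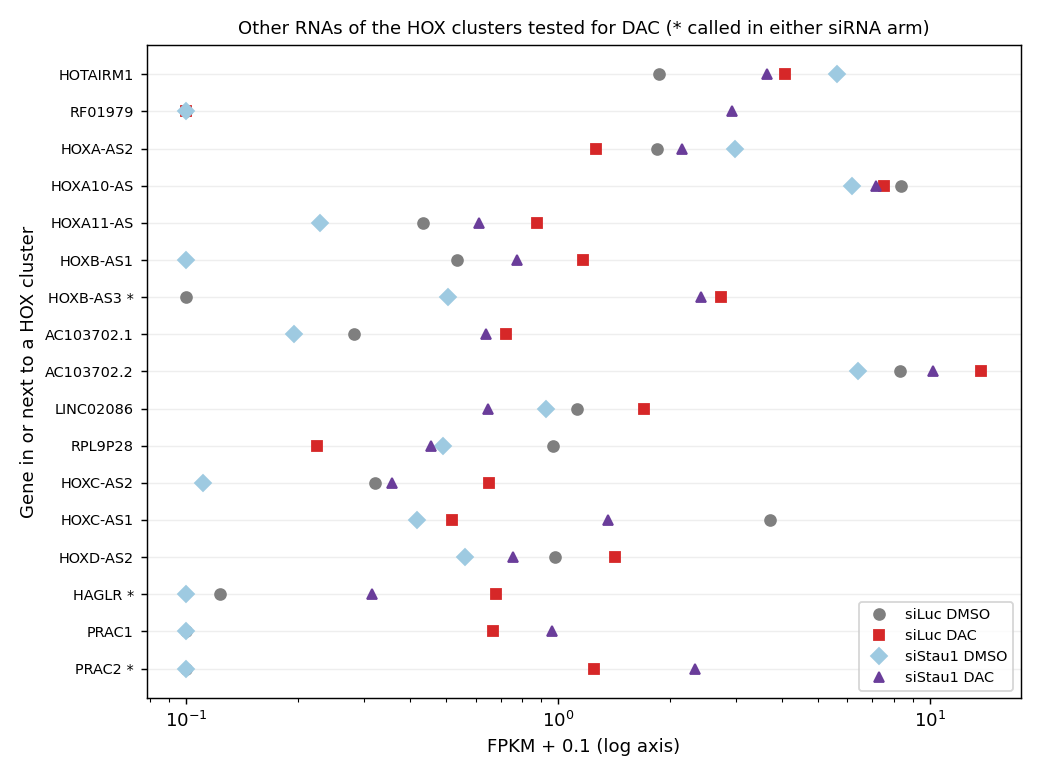
Levels (FPKM + 0.1, log axis) of the other RNAs in or next to the HOX clusters that were tested for DAC in either arm, with 1 symbol per group; symbols at the left edge are at or near 0 and may lie on top of each other. The starred genes HOXB-AS3, HAGLR and PRAC2 were called higher with DAC, and PRAC2 is at 0 in both DMSO groups.

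Outside the clusters, neighbours were taken as the 3 protein-coding genes nearest to each end, whatever their distance. Of 22 neighbours tested in siLuc, 1 was called higher with DAC and 3 lower in the authors' deposited table. Over all genes tested, 8.71% and 4.78% were. In siStau1 cells 1 of 22 was called higher and 1 lower in that table, against 4.56% and 2.89%. CALCOCO1, a neighbour of HOXC, rose with DAC in siLuc (8.47 to 22.7 FPKM) and in siStau1 (5.83 to 17.1 FPKM) (q = 0.0201 and 0.00162 in that table). HIBADH and TAX1BP1, on the HOXA13 side of HOXA, fell in siLuc cells from 23.0 to 7.34 and from 38.5 to 15.8 FPKM (q = 0.0228 and 0.00917 in that table). HNRNPA3, a neighbour of HOXD, fell in siLuc cells from 68.3 to 29.3 FPKM (q = 0.0479 in that table). In siStau1 cells SNX10, on the other side of HOXA, fell with DAC from 24.99 to 8.59 FPKM (q = 0.00162 in that table). Of 21 neighbours tested for the knockdown with DAC, TAX1BP1 alone was called in that table (0.904% of all genes tested were); it had 15.8 FPKM in siLuc and 38.2 in siStau1 cells under DAC (q = 0.0101 in that table). The homeobox genes EVX1 and EVX2 at the cluster ends stayed at or below 0.0371 FPKM.

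Among regulators of HOX genes, Polycomb genes had 1 call higher and 2 lower with DAC among 26 tested in siLuc, and 1 lower in siStau1, in the authors' deposited table, where 13.5% and 7.46% of all genes tested were called. SUZ12, a core subunit of Polycomb repressive complex 2, was at 18.9 FPKM with DMSO and 5.58 with DAC in siLuc cells, and 27.7 with DMSO and 12.1 with DAC in siStau1 cells, and fell in both arms (q = 0.00162 and 0.00525 in that table). RBBP7, a histone-binding subunit, fell in siLuc cells from 116 to 46.9 FPKM, and PHC2, of Polycomb repressive complex 1, rose from 19.998 to 41.1 (q = 0.0343 for each in that table). When centred on genes of like GC content, the siLuc log2 ratio of PHC2 went from 1.04 to 0.021 and that of RBBP7 from -1.30 to -0.69. The centred ratios of SUZ12 were -1.06 in siLuc and -0.60 in siStau1.

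Of 12 trithorax and MLL genes tested, 2 were called lower in siLuc and 1 in siStau1 in the authors' deposited table, against 4.78% and 2.89% of all genes tested. PSIP1, which tethers MLL complexes to chromatin, was at 103, 22.9, 157 and 42.0 FPKM and fell in both arms (q = 0.00162 in each, in that table). DPY30, a shared subunit of MLL complexes, fell in siLuc cells from 55.7 to 15.4 FPKM (q = 0.0408 in that table). Among 7 DNA methylation genes tested (background 8.71% higher), TET3 alone was called higher in siLuc cells, from 1.51 to 3.73 FPKM (q = 0.0234 in that table). None of the 7 was called in siStau1. The siLuc log2 ratio of TET3 went from 1.25 to 0.79 when centred on genes of like GC content.

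HOX cofactors of the MEIS, PBX and PKNOX families had no call among 7 tested in either DAC comparison of the authors' deposited table. Of all genes tested, 13.5% and 7.46% were called there. An unadjusted Cuffdiff p under 0.05 was found for 1 cofactor in siLuc and 2 in siStau1. The same held for 5056 of 17504 and 3228 of 16979 genes tested. MEIS3 had the highest levels of them, 15.8 FPKM with DMSO and 28.4 with DAC in siLuc cells, and 10.6 with DMSO and 27.8 with DAC in siStau1 cells. Of the upstream regulators, 1 of 10 tested in siLuc and 1 of 9 in siStau1 was called higher (background 8.71% and 4.56%), both times CDX1, a caudal-type activator of HOX genes in the gut. CDX1 was listed at 0 with DMSO, and with DAC it was at 0.947 FPKM in siLuc and 0.791 in siStau1 cells (q = 0.00162 in each, in the authors' deposited table). CDX2, its relative, was at 7.31, 7.11, 2.76 and 7.47 FPKM with no call. Among 38 other homeobox genes, 3 of 19 tested were called higher in siLuc and 1 of 20 in siStau1 (background 8.71% and 4.56%), and MSX1 rose in both arms, from 14.1 to 62.7 and from 20.4 to 66.2 FPKM (q = 0.00162 in each, in that table).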

How the data were processed

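Total RNA of 4 groups of 2 libraries was analysed from 1 deposited table in the layout of Cuffdiff. Per the submitters' processing notes, the tools listed were bcl2fastq 2.20, HISAT2 2.1.0, featureCounts, DESeq 1.36.0, Cuffdiff 2.2.1 and Cuffnorm 2.2.1, with the build hg38; which tool made which table is not given in the sources used here. Per the file headers, the deposited values are FPKM per gene and group, with the authors' p-value and q-value for each of 6 comparisons, of which 4 were used. The deposited q-value was recomputed as the Benjamini-Hochberg value over all 102180 tests, with a largest gap of 5.3e-07. Values per library were not used here, so the planned count test was replaced by the calls the authors made, those with a q-value below 0.05.

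Ratios are log2 of FPKM with a pseudocount of 0.1, which understates changes of low genes, summarised over genes with at least 1 FPKM in either group (Python 3.11.15, pandas 2.3.3, numpy 2.4.6). Other pseudocounts, filters, q-value limits and centrings were tried. Gene positions, GC content (20 bins of the longest transcript) and overlaps came from GENCODE 29, which holds all 58699 identifiers. A HOX gene was described in full if it reached 1 FPKM in any group or was called in any comparison; the others are given as ranges, and 1 member is not reported here, although it counts in the sums, counts and medians. The members and gene lists were chosen with earlier results of these data known. The Benjamini-Hochberg adjustment and the centring by GC content were tested on simulated data.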

Additional observations from a re-analysis of the deposited data

How the results depend on the processing

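At a q-value under 0.01, 0 HOX genes were called for DAC in siLuc and 1 in siStau1; adjusting within each comparison or keeping genes of at least 1 FPKM left the call counts as given. The median log2 ratio of expressed HOX genes for DAC in siLuc, -0.70, was -0.47 with pseudocount 1, -0.72 with 0.01, 0.31 without the FPKM filter, -0.89 centred on all genes and -1.01 centred within GC bins. In siStau1 the median, -0.24, was -0.16, -0.25, 0.089, -0.31 and -0.75 in the same order. For the knockdown with DMSO, -0.11 was -0.10, -0.11, -0.14, -0.094 and 0.18, and with DAC, -0.02 was -0.025, -0.019, -0.046, 0.11 and 0.34. The sign therefore turned without the filter for DAC in both arms, with centring within GC bins for the knockdown with DMSO, and with either centring for the knockdown with DAC; the cause was not tested. Centring within GC bins also turned the HOXB median for DAC to -0.31 in siLuc and -0.12 in siStau1, the HOXA and HOXD medians for the knockdown with DMSO to 0.097 and 0.26, and the HOXB and HOXC medians for the knockdown with DAC to 0.34 and 0.090. Scaling a group by 1 constant cannot change the cluster shares within it. With limits of 0.5 or 2 FPKM, 26 of 32 counts of expressed members differed from those at 1 FPKM, 9 of them by over 1.5 times.

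No paired analysis was possible because the deposited levels are per group and not per library, and leaving out single replicates and the replicate block were not run for the same reason. Depth is unknown, between 21 and 24 of the 40 HOX entries lie below 1 FPKM in each group, and exons of 19 members overlap another gene on the same strand and of 19 on the opposite strand, which limits how far low levels can be told apart.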
